A study of Mus musculus with 15 samples.

Results

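The 10 genes described here, *C1qa*, *C1qb*, *C1qc*, *Cx3cr1*, *Csf1r*, *Tmem119*, *Aif1*, *P2ry12*, *Itgam* and *Trem2*, are widely used markers of microglia. They were taken by symbol from an RNA-seq table of mouse cerebral cortex, which lists 23235 genes and holds all 10. The table gives 4 groups of adult male mice, made of 3 WT and 2 *Snord116del* mice killed at Zt +6 and 2 WT and 2 *Snord116del* mice killed at Zt +16. Zt is zeitgeber time, the hours after lights on, so that the first time falls in the light phase and the later one in the dark phase. WT mice were C57BL/6J littermates. *Snord116del* mice, B6(Cg)-Snord116tm1.1Uta/J, were heterozygous and had inherited from the father a deletion of the *Snord116* cluster, which removes the small nucleolar RNAs and the long host transcript 116HG and serves as a model of Prader–Willi syndrome. Each gene has 1 FPKM value per group (fragments per kilobase of transcript, relative to the fragments mapped), with the mice of a group combined, so no spread between mice or error can be computed from these values, and the authors' own test columns in the table were not used. The table holds no read counts, so the depth behind each value cannot be read from it.

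The deletion could not be read from the cluster itself, since the entry *Snord116* was listed at 0 in every group. *Ipw*, a transcript of the same imprinted locus whose place relative to the deletion was not checked, was listed at 21.6 FPKM in WT against 3.40 in *Snord116del* at Zt +6 and at 3.17 and 1.82 FPKM at Zt +16. WT *Ipw* at Zt +16 was therefore below *Snord116del* *Ipw* at Zt +6. The groups also differed as wholes. The 10297 genes whose mean over the groups reached 1 FPKM are called tested genes, although no statistical test was made here, and their median FPKM was 3.17 in WT against 5.63 in *Snord116del* at Zt +6, with values of 2.90 against 4.00 at the later time. The sum of all FPKM was 159300, 160199, 216422 and 342188 in the same order. For this reason each comparison is given as deposited and again after the groups had been rescaled to 1 common median, called equal medians. The labels of both *Snord116del* mice and of 1 WT mouse at Zt +6 name an earlier version of the table, and whether those mice were sequenced apart from the rest is not stated.

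Microglia are the resident macrophages of the brain parenchyma. They arise from yolk sac progenitors, depend on signals through the receptor *Csf1r*, and survey the tissue with motile processes whose movement towards injured cells is steered by *P2ry12*. Through *Cx3cr1* they receive the chemokine *Cx3cl1* from neurons. They are the main source in brain of C1q, the recognition molecule of the classical complement pathway, which tags synapses and debris for removal. *Itgam* is a chain of complement receptor 3, which binds fragments of *C3* on tagged targets, and *Trem2* is a lipid receptor that signals through the adaptor *Tyrobp*. In whole cortex, fewer cells of a type and less RNA per cell cannot be told apart.

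The genes spanned a wide range of levels, and the ends of the order were the same in all 4 groups. In FPKM, which is per transcript length, *C1qb* was the highest and *Itgam* the lowest of the 10 in every group. *C1qb* stood at the 94.0, 94.3, 93.9 and 95.3 percentile of the tested genes in WT Zt +6, *Snord116del* Zt +6, WT Zt +16 and *Snord116del* Zt +16. *Itgam* was at 0.496, 1.5, 0.0958 and 0.148 FPKM, with a mean of 0.561 over the groups, and was the only member that did not pass the filter of 1 FPKM, so that 9 members entered the counts below. The other 8 genes lay between 1.66 and 36.8 FPKM. The members bore out the label to unequal degrees. All 3 C1q chains, *Csf1r* and *Trem2* were above 7 FPKM in every group. *Tmem119* was at 3.74 to 8.54 FPKM over the groups, *Cx3cr1* at 3.58 to 7.09, *Aif1* at 2.70 to 5.15 and *P2ry12* at 1.66 to 11.9. *Itgam* was close to 0 at Zt +16.

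**Figure D1:**
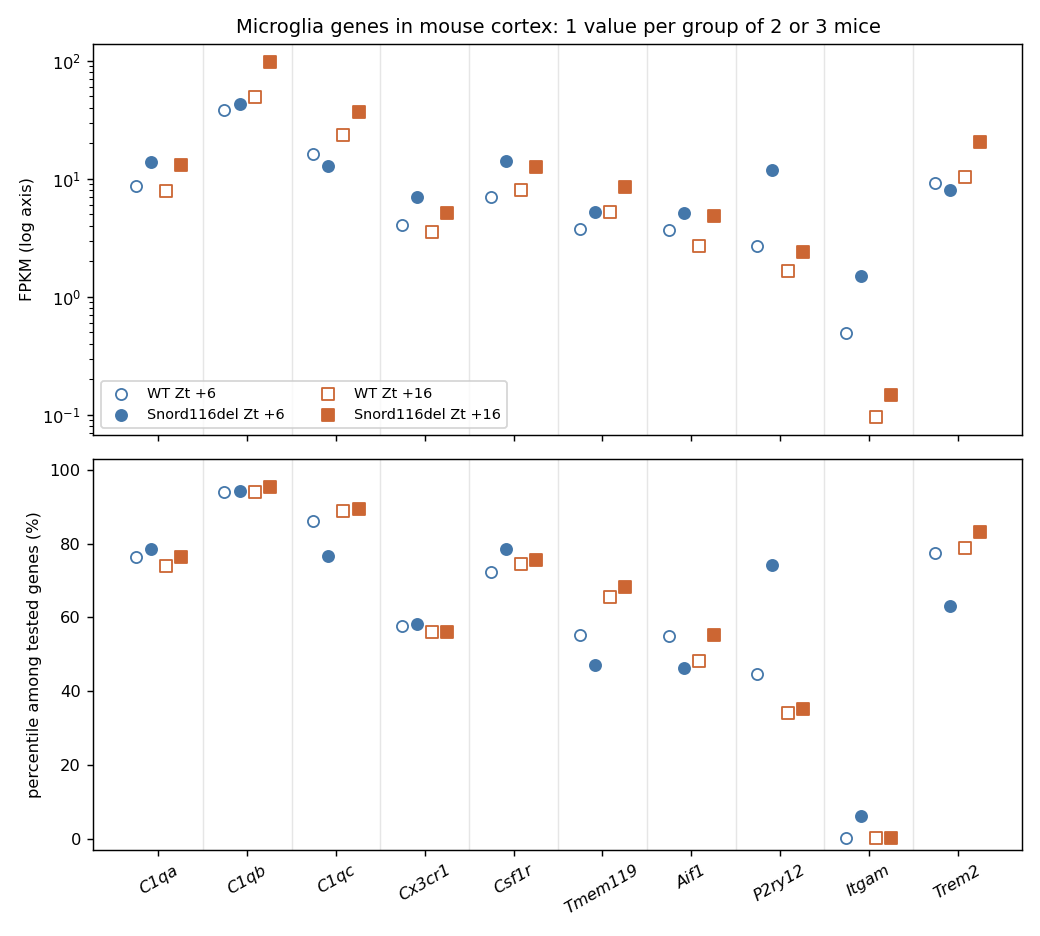
FPKM of the 10 microglia genes in the 4 groups on a log axis (top) and their percentile among the 10297 tested genes (bottom); each symbol is the 1 value of a group of 2 or 3 mice, so there are no error bars. *C1qb* was highest and *Itgam* lowest in every group, and the filled orange squares (*Snord116del*, Zt +16) lay above the open ones (WT, Zt +16) for all 10 genes. Most tested genes also had a higher FPKM in *Snord116del* at Zt +16.

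C1q is built from the products of 3 genes, *C1qa*, *C1qb* and *C1qc*, which lie next to each other on the minus strand of chromosome 4 (mm9). *C1qb* occupies chr4:136436044-136442102, *C1qc* chr4:136445719-136448980 and *C1qa* chr4:136451832-136454718. *C1qa*, the A chain, was listed at 8.78 FPKM in WT against 14.0 in *Snord116del* at Zt +6 and at 7.83 and 13.2 FPKM at Zt +16. It was higher in both *Snord116del* groups than in both WT groups as deposited, but with equal medians its FPKM was 9.45 in *Snord116del* at Zt +6, below 10.5 and 10.2 in WT at the 2 times. *C1qb*, the B chain, was at 38.3 and 43.0 FPKM at Zt +6 and at 49.0 and 98.3 FPKM at Zt +16. *C1qc*, the C chain, was at 16.1 and 12.9 FPKM at Zt +6 and at 23.4 and 36.8 FPKM at Zt +16. As deposited, *C1qb* and *C1qc* thus shared their highest group, *Snord116del* at Zt +16, whereas *C1qa* was about equally high in *Snord116del* at both times. With equal medians *C1qa* too was highest in *Snord116del* at Zt +16 (12.5 FPKM). With every group scaled to the same sum of FPKM, *C1qc* was no higher in *Snord116del* than in WT at Zt +16 (log2 change of -0.0060).

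The chains are needed in equal number in the protein, so their shares of the summed C1q FPKM were also compared, which no scaling of a group can alter. *C1qb* made up 60.6, 61.4, 61.1 and 66.3% of the sum in WT Zt +6, *Snord116del* Zt +6, WT Zt +16 and *Snord116del* Zt +16. *C1qa* made up 13.9, 20.1, 9.76 and 8.87%, and *C1qc* 25.5, 18.5, 29.2 and 24.8%. *Snord116del* at Zt +6 was the only group in which *C1qa* had a larger share than *C1qc*. The summed C1q level was 63.2, 69.9, 80.2 and 148 FPKM, and C1q took 67.1, 56.9, 71.6 and 73.2% of the summed FPKM of the 10 genes.

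**Figure D2:**
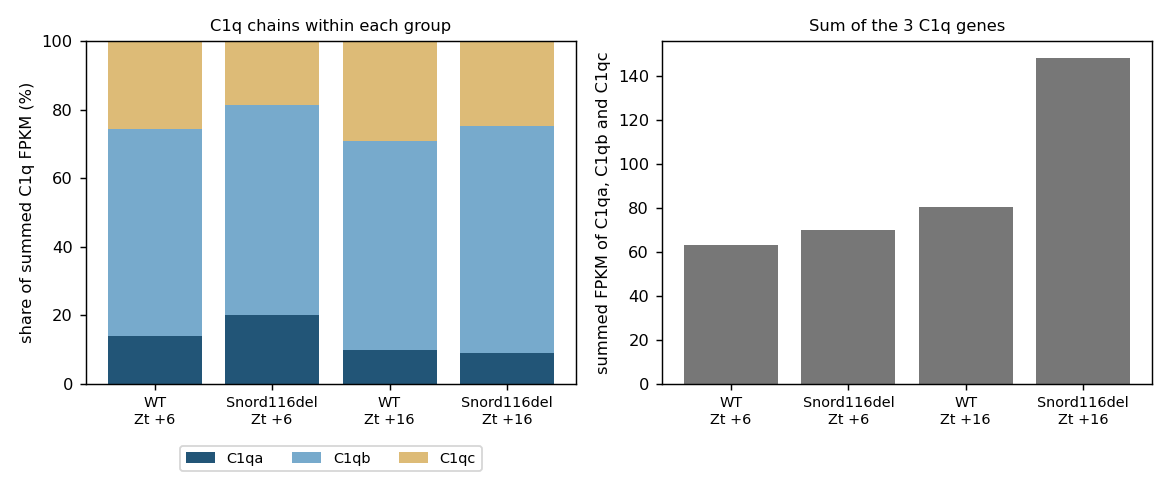
Share of each C1q chain in the summed FPKM of *C1qa*, *C1qb* and *C1qc* (left, %) and that sum (right, FPKM) in the 4 groups; each bar is 1 group value without an error. *C1qb* held 60.6 to 66.3% of the sum in every group. As deposited, the sum was highest, at 148 FPKM, in *Snord116del* at Zt +16, the group with the highest sum of all FPKM.

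Among the receptors, *Csf1r*, the receptor of the survival factors *Csf1* and *Il34*, was listed at 7.09 FPKM in WT against 14.0 in *Snord116del* at Zt +6 and at 8.06 and 12.6 FPKM at Zt +16. *Cx3cr1*, the fractalkine receptor, was at 4.07 and 7.09 FPKM at Zt +6 and at 3.58 and 5.11 FPKM at Zt +16. Both were higher in either *Snord116del* group than in either WT group as deposited. This order was lost with equal medians, where *Cx3cr1* was at 4.69 to 4.87 FPKM in all groups and *Csf1r* in *Snord116del* at Zt +6 (9.46 FPKM) was below WT at Zt +16 (10.6 FPKM). *P2ry12*, the purinergic receptor of resting microglia, was at 2.69 and 11.9 FPKM at Zt +6 and at 1.66 and 2.40 FPKM at Zt +16. One group stood apart for *P2ry12*, *Snord116del* at Zt +6, and its highest and lowest groups differed 7.14-fold. *Trem2* was at 9.18 and 8.12 FPKM at Zt +6 and at 10.5 and 20.7 FPKM at Zt +16, with *Snord116del* at Zt +16 apart from the other groups.

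The remaining markers were *Tmem119*, a membrane protein that separates microglia from other macrophages, and *Aif1*, which encodes the actin-binding protein Iba1. *Tmem119* was at 3.74 and 5.25 FPKM in WT and *Snord116del* at Zt +6 and at 5.29 and 8.54 FPKM at Zt +16. *Aif1* was at 3.70 and 5.15 FPKM at Zt +6 and at 2.70 and 4.89 FPKM at Zt +16. *Aif1* was higher in both *Snord116del* groups than in both WT groups as deposited, whereas with equal medians it was lowest in *Snord116del* at Zt +6 (3.47 FPKM, against 4.43 and 3.54 in WT). *Tmem119* in *Snord116del* at Zt +6 was no higher than in WT at Zt +16. In mm9, *Cx3cr1* lies at chr9:119957811-119977400, *Tmem119* at chr5:114243738-114250525, *P2ry12* at chr3:59020193-59066753 and *Itgam* at chr7:135206154-135271674, while *Aif1* (chr17:35307936-35313013) and *Trem2* (chr17:48485726-48493472) share a chromosome. The highest and lowest groups of the members other than *P2ry12* and *Itgam* differed 1.79-fold (*C1qa*) to 2.85-fold (*C1qc*).

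*Snord116del* was first compared with WT at Zt +6. *P2ry12*, *Csf1r*, *Cx3cr1* and *C1qa* were higher in *Snord116del*, with folds of FPKM + 1 of 3.49, 1.86, 1.60 and 1.54. *Aif1* and *Tmem119* (log2 changes of 0.39 and 0.40) and *C1qb* (0.16) were above WT by less than 1.5-fold. *C1qc* and *Trem2* had log2 changes of -0.30 and -0.16. A gene was counted as past the rule if FPKM + 1 differed 1.5-fold or more and the higher value reached 1 FPKM. By this rule 4 of the 9 members were higher and 0 lower, against 49.3% of all tested genes higher and 7.62% lower, so the members' share of higher genes was near the background. Their median log2 change of 0.40 was below that of all tested genes, 0.57. With equal medians, 1 member was higher (*P2ry12*, log2 change of 1.09) and 3 were lower (*C1qc*, -1.07, *Trem2*, -0.89, and *C1qb*, -0.65), against 14.8% and 24.2% of all tested genes.

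At Zt +16 all 10 genes were listed higher in *Snord116del* than in WT. Most tested genes were higher as well, since the first quartile of their log2 changes was 0.20. The log2 changes of FPKM + 1 were 0.99 for *C1qb*, 0.92 for *Trem2*, 0.68 for *C1qa*, 0.67 for *Aif1*, 0.63 for *C1qc*, 0.60 for *Tmem119* and 0.59 for *Csf1r*. These 7 of the 9 members were past the rule and 0 were lower, against 19% of all tested genes higher and 0.204% lower. *Cx3cr1* (0.42), *P2ry12* (0.35) and *Itgam* (0.07, below the filter) had smaller values. The members' median of 0.63 was above that of all tested genes, 0.35. Their percentile among the tested genes was higher in *Snord116del* for all 10, for example 83.1 against 78.8 for *Trem2* and 55.1 against 48.2 for *Aif1*. The difference was small for *Cx3cr1* (56.1 against 55.9) and for *Itgam* (0.262 against 0.233, below the filter). The share of all tested genes with a higher percentile was not computed, so this count does not set the members apart. The size of these differences depended on the scale of the groups. With equal medians, 0 members were past the rule in either direction, against 1.2% of all tested genes higher and 0.515% lower, and *C1qb* (0.53) and *Trem2* (0.49) had the largest values. The members' median was then 0.20, against 0.01 for all tested genes.

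**Figure D3:**
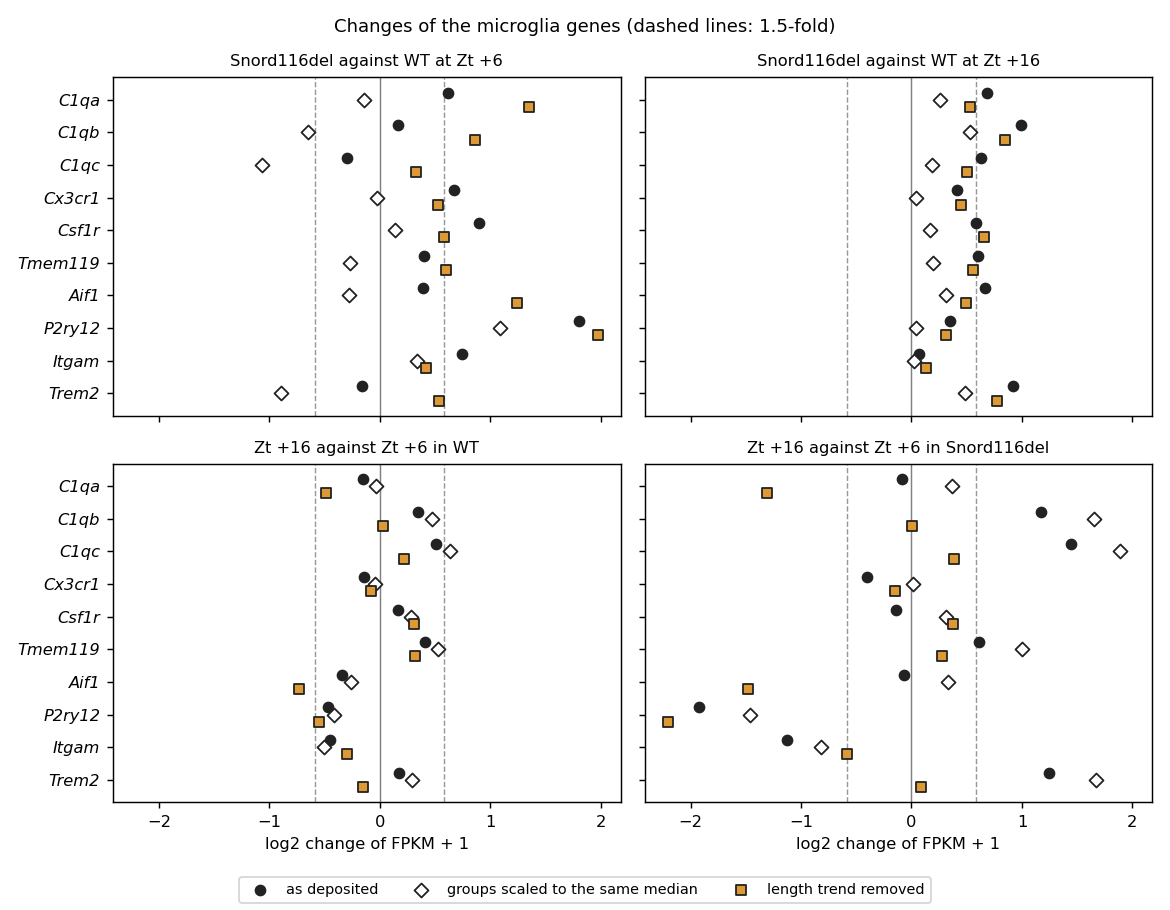
Log2 change of FPKM + 1 for each microglia gene in the 4 comparisons, as deposited, with equal medians, and after removal of the trend on transcript length; each point is 1 comparison of 2 group values and has no error. At Zt +16 all 10 genes lay above 0 as deposited, as did most tested genes. At Zt +6 *P2ry12* lay above the others and *C1qc* and *Trem2* lay below 0.

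The times were compared within each genotype. These comparisons share their groups with the ones above and are not separate evidence. In WT, 0 of 9 members were past the rule between Zt +16 and Zt +6, against 5.71% of all tested genes higher at Zt +16 and 10.3% lower. Their log2 changes ran from -0.47 (*P2ry12*) to 0.51 (*C1qc*), with 5 of the 10 genes above 0. With equal medians *C1qc* (0.64) was past the rule, against 10.6% of all tested genes higher and 9.24% lower.

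In *Snord116del*, *C1qc* (1.44), *Trem2* (1.25), *C1qb* (1.17) and *Tmem119* (0.61) were higher at Zt +16 and *P2ry12* (-1.92) was lower. These are 4 of the 9 members higher and 1 lower, against 25% and 39.1% of all tested genes. *C1qa* (-0.09), *Aif1* (-0.06), *Csf1r* (-0.14) and *Cx3cr1* (-0.41) were not past the rule. The same 5 genes were past the rule with equal medians, at log2 changes of 1.88, 1.67, 1.65, 1.00 and -1.46, against 34.9% of all tested genes higher and 26.3% lower. The members' share of genes past the rule in this comparison, 5 of 9, did not stand out from that background. The ratio of *P2ry12* to *C1qb* FPKM was 0.276 in *Snord116del* at Zt +6 and 0.0704, 0.0340 and 0.0244 in WT Zt +6, WT Zt +16 and *Snord116del* Zt +16. *Trem2* had 0.684 of the FPKM of *P2ry12* in *Snord116del* at Zt +6, and 3.41, 6.29 and 8.62 times its FPKM in the other groups.

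The genotype difference at Zt +16 less that at Zt +6, in log2 units, was 1.08 for *Trem2*, 0.93 for *C1qc* and 0.83 for *C1qb*. It was -1.45 for *P2ry12*, -0.68 for *Itgam*, -0.31 for *Csf1r* and -0.26 for *Cx3cr1*. For *C1qa*, *Tmem119* and *Aif1* it lay at 0.06, 0.20 and 0.28. As deposited, the genotype difference thus lay higher in the dark phase for *C1qb*, *C1qc* and *Trem2* and higher in the light phase for *P2ry12*. With equal medians the differences at Zt +6 and Zt +16 were -1.07 and 0.18 for *C1qc*, -0.89 and 0.49 for *Trem2*, -0.65 and 0.53 for *C1qb*, and 1.09 and 0.04 for *P2ry12*, so that for the first 3 genes the larger difference in size was the negative one at Zt +6. With the trend on length removed, as described next, *C1qb* had 0.86 and 0.84, *C1qc* 0.33 and 0.50, and *Trem2* 0.54 and 0.77. *P2ry12* then had 1.97 and 0.32. With 1 value per group these differences could not be tested here.

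Transcript length moved with these values. Transcripts of *C1qa*, *C1qb*, *C1qc*, *Trem2* and *Aif1* have 875 to 1203 bases, and those of *Tmem119*, *P2ry12*, *Cx3cr1*, *Csf1r* and *Itgam* 2242 to 4803 bases. Over the 9945 tested genes with a transcript length, Spearman's rho between log2 change and length was 0.65 for *Snord116del* against WT at Zt +6, -0.40 at Zt +16, -0.50 between the times in WT and -0.64 in *Snord116del*. Over the 9 members it was 0.58, -0.78, 0.09 and -0.48. Genes are not independent replicates, and all values share the same groups, so these coefficients are descriptions. With the trend on length removed, the members at Zt +6 had log2 changes of 1.97 (*P2ry12*), 1.35 (*C1qa*), 1.24 (*Aif1*), 0.86 (*C1qb*) and 0.60 (*Tmem119*), which were past the rule, and of 0.33 to 0.58 for the others of the 9. These 5 of 9 higher and 0 lower stand against 46.7% of all tested genes higher and 2.12% lower. Shares with the trend removed are of all 10297 tested genes. Those without a transcript length could not be past the rule, so the shares are slightly low. At Zt +16 *C1qb* (0.84), *Trem2* (0.77) and *Csf1r* (0.65) were still past it, which is 3 of 9 against 14.8% higher and 0.126% lower. In WT between the times 1 member (*Aif1*, -0.73) was lower, against 2.21% higher and 7.66% lower. Between the times in *Snord116del*, *C1qb* and *Trem2* were left with 0.01 and 0.08 and *C1qc* with 0.39, while *P2ry12* (-2.21), *Aif1* (-1.48) and *C1qa* (-1.31) were lower. These 3 of 9 lower and 0 higher are the background share, 33.7% lower, with 15.9% higher. The differences of *C1qb*, *C1qc*, *Trem2* and *Tmem119* (0.28) between the times in *Snord116del* were thus not past the rule once this trend was removed. The length trend was set by all tested genes, and its source was not tested.

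**Figure D4:**
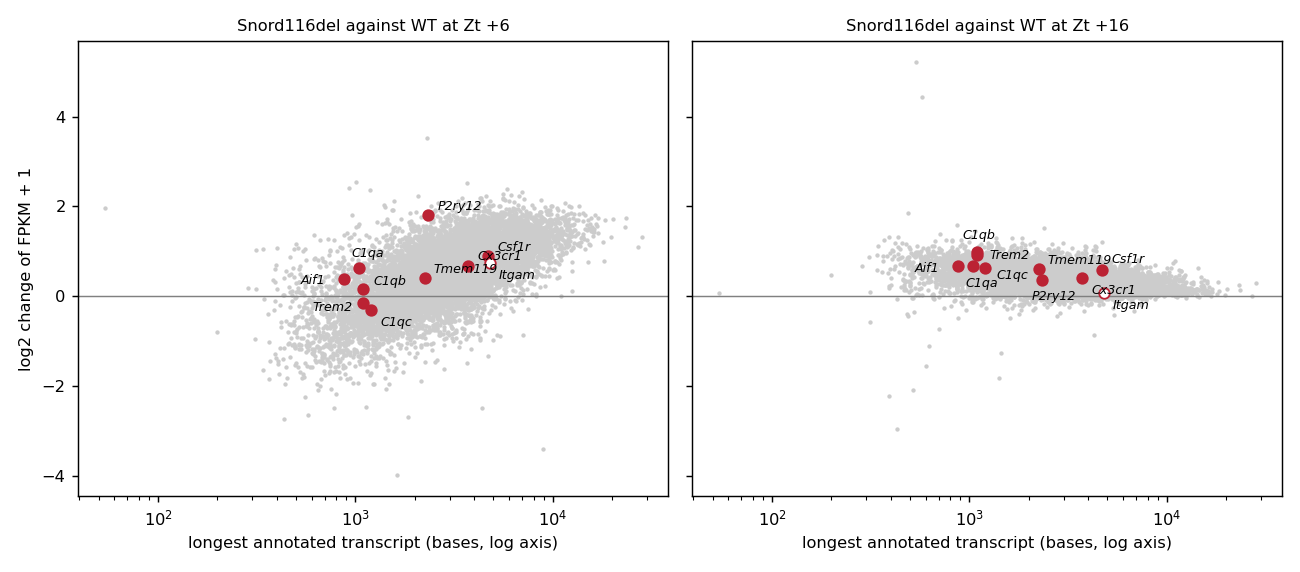
Log2 change of FPKM + 1 against transcript length (bases, log axis) for the tested genes (grey) and the microglia genes (named points), for *Snord116del* against WT at Zt +6 and Zt +16. Long transcripts lay higher at Zt +6 (Spearman's rho of 0.65 over 9945 genes) and lower at Zt +16 (-0.40), and the members are spread from 875 to 4803 bases.

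Ligands and partners of the members were listed as well. *Il34*, the neuronal ligand of *Csf1r*, was at 7.51, 8.09, 8.18 and 12.8 FPKM in WT Zt +6, *Snord116del* Zt +6, WT Zt +16 and *Snord116del* Zt +16, and *Csf1*, the other ligand, at 1.73, 2.93, 1.64 and 1.96 FPKM. *Il34* was above *Csf1* in every group, 2.76 to 6.55 times. *Cx3cl1*, the neuronal ligand of *Cx3cr1*, was at 44.2, 101, 35.5 and 42.1 FPKM, which is 8.23 to 14.2 times the FPKM of its receptor. It was higher in *Snord116del* at Zt +6 (log2 change of 1.17), and its own value at Zt +16 (0.24) was not past the rule. *Tyrobp*, the signalling adaptor of *Trem2*, was at 47.7, 29.5, 70.2 and 130 FPKM. *Tyrobp* was lower in *Snord116del* at Zt +6 (-0.67) and higher at Zt +16 (0.88). As deposited it so had the same order of groups as *Trem2* itself, with the lowest value in *Snord116del* at Zt +6 and the highest in *Snord116del* at Zt +16. With the trend on length removed, *Trem2* had 0.54 at Zt +6 and 0.08 between the times in *Snord116del*. No value of *Tyrobp* with this trend removed is given here.

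The lipid carriers *Apoe* and *Clu* are ligands of *Trem2* and are made in brain mainly by astrocytes. *Apoe* was at 863, 667, 1395 and 2745 FPKM and *Clu* at 89.8, 146, 100 and 190 FPKM. At Zt +16 both were higher in *Snord116del*, by log2 changes of 0.98 and 0.91, while at Zt +6 *Clu* (0.70) was higher and *Apoe* was at -0.37. The other 7 genes did not pass the filter. They were *Hcst*, another adaptor of *Trem2* (0.22 to 1.04 FPKM over the groups), *Itgb2*, the partner chain of *Itgam* (0.35 to 0.96), *Entpd1*, which breaks down the nucleotides that *P2ry12* senses (0.39 to 1.53), the kinase *Syk* (0.24 to 0.39), *Plcg2* (0.25 to 0.57), and the C1q-associated proteases *C1ra* (0.43 to 0.87) and *C1s* (0.06 to 0.20). Both proteases were thus below 1 FPKM in cortex in which *C1qb* was at 38.3 FPKM or more. Of the 6 ligands and partners that passed, 2 were higher and 1 lower in *Snord116del* at Zt +6, and 4 were higher and 0 lower at Zt +16, against 49.3%, 7.62%, 19% and 0.204% of all tested genes.

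Of 30 other genes of microglia and myeloid cells, 19 passed the filter. At Zt +6, 10 were higher in *Snord116del* and 1 was lower, with a median log2 change of 0.79, so that the share of higher genes was near the 49.3% of all tested genes. The lower gene was *Tyrobp*, which is also counted among the ligands and partners. The largest were *Tgfbr1*, a receptor of TGF-beta (0.842 in WT and 3.25 FPKM in *Snord116del*), *Laptm5*, a lysosomal membrane protein (0.960 and 3.23 FPKM), and *P2ry13*, a purinergic receptor (1.09 and 3.22 FPKM). Of the 19 genes, 6, among them *Tgfbr1* and *Laptm5*, passed the filter only through the group in which they were highest (a mean below 1 FPKM over the other 3), so the count at Zt +6 is a description. At Zt +16, 3 of the 19 were higher and 0 lower, with a median of 0.34, against 0.35 for all tested genes. With equal medians the list had 1 higher and 3 lower at Zt +6 and 0 in either direction at Zt +16.

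Of 27 complement genes beyond C1q, 6 passed the filter, of which 3 were higher in *Snord116del* at Zt +6 and 0 were past the rule at Zt +16. The 3 were *Csmd1*, an inhibitor expressed by neurons (1.74 and 7.73 FPKM), *Cr1l*, a regulator of *C3* activation (2.57 and 7.45 FPKM), and *Cfp*, properdin (1.53 and 3.8 FPKM). *Csmd1* passed the filter only through *Snord116del* at Zt +6, and 2 of the 6 genes passed through 1 group. The count of 3 of 6 stands against 49.3% of all tested genes. Of 19 genes of disease-associated microglia, 13 passed, with 3 higher at Zt +6 and 4 higher at Zt +16, against 49.3% and 19% of all tested genes. *B2m*, the light chain of MHC class I, was at 26.9 and 57.5 FPKM at Zt +6 and at 19.7 and 40.1 FPKM at Zt +16. *Axl*, a receptor for dying cells, was at 2.02 and 4.50 FPKM at Zt +6. Of 18 inflammatory genes, 0 reached a mean of 1 FPKM.

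Other cell types were read from their own markers. Of 8 genes of border macrophages, which also express several of the members, only *Pf4* passed the filter, and *Mrc1*, *Cd163* and *Lyve1* were at 0.39 FPKM or less in every group. The sum of the 8 was 5.31, 5.54, 10.3 and 12.9 FPKM in WT Zt +6, *Snord116del* Zt +6, WT Zt +16 and *Snord116del* Zt +16. Of 13 genes of blood cells, 7 passed, and their sum was 287, 329, 1186 and 1181 FPKM. As deposited, both sums were higher at Zt +16 in each genotype. The sum of all FPKM was also higher then, at 216422 in WT and 342188 in *Snord116del* against 159300 and 160199. Between the times, *Pf4* had log2 changes of 1.00 in WT and 1.77 in *Snord116del*. These were 1.14 and 2.07 with equal medians, and 0.48 and -0.12 with the trend on length removed. *Hba-a1* was listed at 0 in every group, and *Hbb-b2*, a globin chain, was at 62.6, 18.0, 409 and 401 FPKM. *Hbb-b1*, another globin chain, went the other way between the times, at 36.8, 89.4, 18.9 and 26.0 FPKM. *Alas2* was at 0.451, 3.02, 0.972 and 1.12 FPKM and passed the filter only through *Snord116del* at Zt +6. *S100a8* and *S100a9*, made by neutrophils, were at 77.3 and 21.5 FPKM in WT at Zt +16 and at 15.9 and 4.27 FPKM in *Snord116del* at Zt +16, against 0.542 to 4.03 FPKM at Zt +6. The part of blood cells in the levels of the members was not tested.

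The markers of other brain cells differed among themselves in their counts past the rule. In *Snord116del* against WT at Zt +6, 9 of 10 astrocyte genes, 4 of 10 oligodendrocyte genes, 7 of 7 endothelial genes that passed and 6 of 10 neuronal genes were higher, with median log2 changes of 1.22, 0.45, 1.10 and 0.74, against 49.3% of all tested genes. Of the 7 endothelial genes, 5 passed the filter through 1 group alone. At Zt +16, 3, 5, 0 and 2 were higher, with medians of 0.45, 0.56, 0.16 and 0.41, against 19% of all tested genes. The median of the microglia genes described here, 0.40 and 0.63, was below all 4 at Zt +6 and above all 4 at Zt +16 as deposited. The 19 other microglia and myeloid genes did not share this order, with medians of 0.79 and 0.34. These lay above oligodendrocytes and neurons at Zt +6 and below astrocytes, oligodendrocytes and neurons at Zt +16. With equal medians the members' median was still above all 4 at Zt +16, at 0.20 against 0.01, 0.10, -0.09 and -0.02 in the same order. The 19 other genes then had 0.04, below oligodendrocytes. At Zt +6 with equal medians the median of the microglia genes was above that of oligodendrocytes (-0.27 against -0.38). With the trend on length removed it was above oligodendrocytes at Zt +6 (0.60 against 0.54) and below them at Zt +16 (0.53 against 0.58). With equal medians 0 genes of these 4 lists were past the rule at Zt +16.

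**Figure D5:**
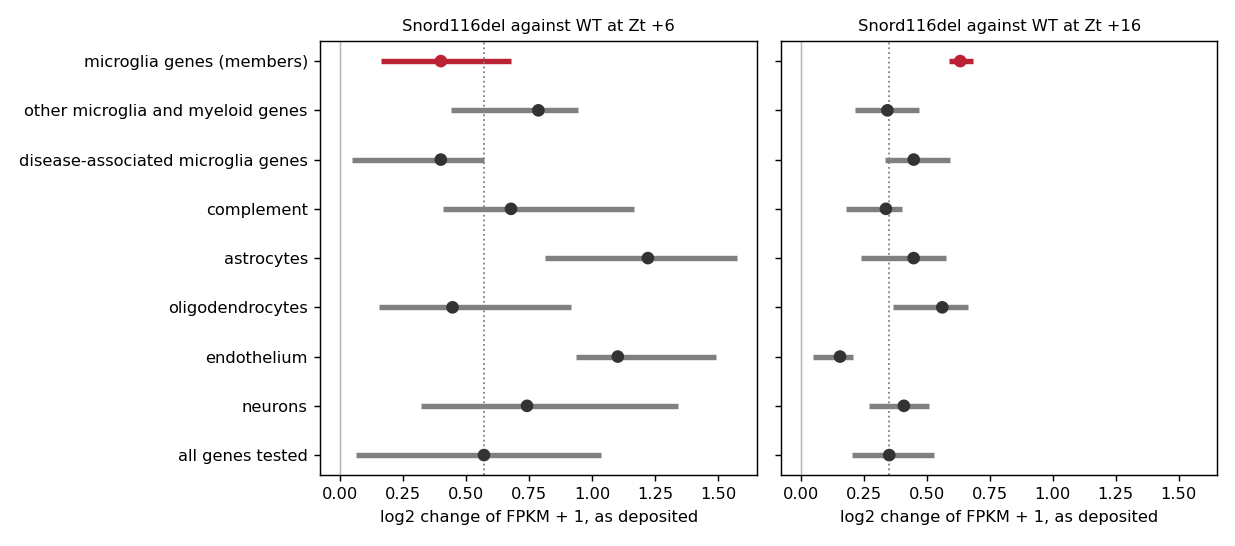
Median log2 change of FPKM + 1 (points) and the range from the first to the third quartile (bars, spread over genes, not an error) for the microglia genes and other gene lists, for *Snord116del* against WT at Zt +6 and Zt +16, as deposited. The dotted line is the median of all tested genes; the microglia genes lay below it at Zt +6 (0.40 against 0.57) and above it at Zt +16 (0.63 against 0.35).

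Peaks of 116HG near the members were read from ChIRP-seq of mouse brain. In this method, oligonucleotides complementary to an RNA pull down the DNA it is bound to. The paper reports the host transcript in neurons and not in glia. The peaks were called from brain tissue with its cell types together. From which cells the peaks at the members come was not tested, so they are not read here as binding in microglia. There are 5 peak lists, made from WT with 116HG oligonucleotides (2 replicates), from WT with nonspecific control oligonucleotides (NSC), and from *Snord116del* with each set. Replicate 1 had a peak within 2 kb of all 10 members. Such a peak was also present at 59.3% of 21853 annotated genes and at 93.6% of the tested ones, so that having one did not set the members apart. Replicate 2 had a peak at 1 member, *C1qb*, against 13.8% of annotated genes. The WT NSC, *Snord116del* 116HG and *Snord116del* NSC lists had peaks at 0 of the 10 members, against 2.3%, 2.26% and 7.86% of annotated genes.

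The 43 replicate 1 peaks at members had their midpoints in coding exons (19), in exons of untranslated regions (20) and in introns (4), so 39 of 43 were centred in an exon. The share over all replicate 1 peaks was not computed, so this count does not set the members apart. *Csf1r* had 13 peaks, *P2ry12* 6, *Aif1* 3, *Trem2* and *C1qb* 2, *C1qc* 1, and the other 4 genes had 4 each. The highest fold over input was 246 at *C1qb*, in a peak at chr4:136436053-136436869 (mm9) over a coding exon. The highest values at *C1qa* and *Csf1r* were 205 and 154, and at *Trem2* the highest was 47.0. Over the 10165 tested genes with an annotation, the number of replicate 1 peaks had a Spearman's rho of 0.36 with mean FPKM across genes, which is a description. Over the 10 members, the highest fold over input had a rho of 0.24 with mean FPKM.

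A replicate 1 peak was called replicated when a replicate 2 peak lay within 10 kb. By this rule 2 members, *C1qb* and *C1qc*, had a replicated peak, against 10.9% of annotated genes and 18% of the tested ones. Both calls involve the same stretch of chromosome 4, since the replicate 2 peak nearest to *C1qc*, at 6.70 kb, lies in *C1qb*. The next nearest were 12.8 kb away at *C1qa* and 19.8 kb away at *Aif1*, and at *Cx3cr1* the distance was 242 kb. The replicate 2 peak inside *C1qb* is printed because it lies within 10 kb of the replicate 1 peaks of both genes, read from the plus strand of NCBIM37 (mm9), with each copy of TCCA in capitals.
*C1qb* intron, chr4:136438940-136439021: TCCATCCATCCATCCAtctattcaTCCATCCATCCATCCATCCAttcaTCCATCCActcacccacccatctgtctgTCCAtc
The peak, 82 bases long, lies in an intron, and 58.5% of its bases are in 12 copies of the repeat. Runs of at least 3 TCCA in a row, on either strand, were present in 26 of 10664 replicate 2 peaks (0.244%), in 48 of 77619 replicate 1 peaks (0.0618%) and in 1 of 3378 WT NSC peaks (0.0296%). They were also present in 8 of 1271 *Snord116del* 116HG peaks (0.629%) and 16 of 3395 *Snord116del* NSC peaks (0.471%). The simple repeat was thus more frequent in both lists made from tissue without 116HG than in either WT 116HG list. It was least frequent in the WT NSC list, which is also a control. A further replicate 2 peak, outside *C1qb* and within 2 kb of it, also gave the call at *C1qb*, and only it lay within 2 kb of a replicate 1 peak there. The call at *C1qb* therefore does not need the repeat peak. What part repeats play in that peak was not tested.

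The promoters of the members were searched for GAGGAA, the core of the site of PU.1, the transcription factor that specifies macrophages and microglia. PU.1 is encoded by *Spi1*, listed in the table as *Sfpi1*, and this gene was named after its values had been seen. *Sfpi1* was at 1.85 and 1.35 FPKM in WT and *Snord116del* at Zt +6 and at 2.05 and 3.13 FPKM at Zt +16. Promoters are the 250 bases before the start of a gene in RefSeq (GRCm38.p6), and 7 of the 10 members had an entry. The core was present on either strand in 5 of the 7, *C1qb*, *C1qc*, *Aif1*, *Itgam* and *Trem2*, against 7639 of 32851 promoters in all (23.3%), and was not in the window of *Cx3cr1* and *P2ry12*. *Itgam* had 2 copies. The first base of the core lay 30 bases before the start in *C1qb*, 193 in *C1qc*, 7 in *Aif1*, 84 and 15 in *Itgam* and 40 in *Trem2*. The promoters of *C1qb* and *C1qc* are printed because these chains had their highest level in the same group as deposited. *Trem2* and *Tmem119* also had their highest level in that group. The printed promoters read 5′ to 3′ on the minus strand that carries *C1qb* and *C1qc*, with the core, or its reverse complement TTCCTC, in capitals.
*C1qb* promoter, chr4:136886201-136886450 (GRCm38.p6): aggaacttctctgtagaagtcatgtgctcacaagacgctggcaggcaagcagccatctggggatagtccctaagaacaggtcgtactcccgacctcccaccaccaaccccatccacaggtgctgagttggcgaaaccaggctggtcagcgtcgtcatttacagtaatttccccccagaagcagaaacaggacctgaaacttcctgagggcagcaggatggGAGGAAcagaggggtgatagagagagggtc
*C1qc* promoter, chr4:136892915-136893164 (GRCm38.p6): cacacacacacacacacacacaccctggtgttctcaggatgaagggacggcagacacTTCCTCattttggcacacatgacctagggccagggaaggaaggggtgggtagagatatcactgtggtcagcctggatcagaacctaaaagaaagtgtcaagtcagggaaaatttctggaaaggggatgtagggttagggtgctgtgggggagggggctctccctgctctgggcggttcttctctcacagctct
The core reads on the strand of the gene in *C1qb* and on the opposite strand in *C1qc*. A match is a description of the letters and not evidence that the factor binds there.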

How the data were processed

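RNA was extracted by the authors from the cortex of each mouse (RNeasy) and made into libraries with the NuGEN Encore Complete kit. Reads were mapped to mm9 with TopHat2 2.0.5, and Cuffdiff 2.0.2 gave the deposited FPKM, 1 value per gene and group over 2 or 3 mice. The table also holds the authors' log2 fold changes, q-values and calls, which were not used. For ChIRP, reads were mapped with Bowtie2 2.0.0 and peaks were called per library with MACS 1.4.2. The deposited peak lists hold positions and the fold over input, a ratio computed by the authors, except WT 116HG replicate 2, which holds positions alone. They were kept by the authors at an FDR under 5% and a fold over input above 20.

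Changes were computed here as log2(FPKM + 1), which understates the change of low genes, over the 10297 genes whose mean of the 4 groups reached 1 FPKM. A gene was past the rule at a 1.5-fold difference of FPKM + 1 with at least 1 FPKM in the higher group. No test was made here, since each group has 1 value, and the depth per library is not in the table. Transcript length and GC content (GENCODE vM1, mm9) were found for 96.6% of the tested genes, and the length trend was a straight line of log2 change on log2 length. List genes were matched by symbol or, failing that, by the RefSeq synonym the table uses. The lists overlap, since *Tyrobp*, *Itgb2*, *Apoe*, *C1ra* and *C1s* are among the ligands and partners and also in another list. Counts of different lists are therefore not separate. Peaks were read as BED intervals, and a member had a peak when it lay in the gene or within 2 kb. All 10 members were named. Of each further list at most the 3 genes past the rule that were most raised and the 3 most lowered between genotypes at either time were named, plus all ligands and partners, and of other brain cells counts and medians alone; *Pf4*, *Mrc1*, *Cd163*, *Lyve1* and *Hba-a1* were named outside this rule, as markers whose presence or absence bears on the cell types, after their values had been seen. The members and lists were chosen with earlier results of these data known. Alternatives were equal medians, quantile normalization, equal totals, removal of the length trend, another pseudocount, no filter, a fold of 2 and other peak windows. No column of single-sample values was left out (0). Scripts used numpy 2.4.6, scipy 1.17.1, pandas 2.3.3 and matplotlib 3.10.9 under Python 3.11.15, and were checked on simulated data.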

Additional observations from a re-analysis of the deposited data

How the results depend on the processing

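No error or leave-one-out value could be had, because each group has 1 value. No paired analysis was possible because the table holds no value per mouse. The count of members past the rule between genotypes at Zt +6 was 4, and was 1 at a fold of 2 and 7 with the trends on length and GC content removed, an alternative added after seeing the data. The count of 7 at Zt +16 became 0 with equal medians, quantile normalization, equal totals or a fold of 2, and 3 with the length trend or with length and GC content removed. Between the times in WT the count of 0 became 1 with a pseudocount of 0.1, equal medians, the length trend removed or length and GC content removed, and 2 with equal totals. In *Snord116del* the count of 5 became 3, all lower at Zt +16, with length or with length and GC content removed, and with equal totals it was 5 with 0 higher. Members with a replicated ChIRP peak fell from 2 to 1 when 2 kb was allowed between replicates.

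The sign of a member's change turned 33 times over the alternatives, 8 times for values past the rule as deposited and 25 times for values that were not, such as *Tmem119* and *Aif1* at Zt +6 with equal medians (-0.27 and -0.28) and *C1qc* and *Trem2* at Zt +6 with the length trend removed (0.33 and 0.54). The 8 were these. With equal medians, *C1qa* and *Cx3cr1* at Zt +6 came to -0.14 and -0.024. With equal totals, *C1qc* and *Csf1r* at Zt +16 came to -0.0060 and -0.013, and *Tmem119* between the times in *Snord116del* to -0.34. With length and GC content removed, *C1qb*, *Tmem119* and *Trem2* between the times in *Snord116del* came to -0.15, -0.0088 and -0.078. Removing only the low-value filter put *Itgam* past the rule at Zt +6 and between the times in *Snord116del* (log2 changes of 0.74 and -1.13).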
